A study of Mus musculus with 9 samples.

Results

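CD11b+ cells from injured mouse livers were compared between animals given SIRP-EVs made by MSC and animals given SIRP-EVs made by HEK cells. Extracellular vesicles (EVs) are small membrane particles that cells shed. The labels spell out neither SIRP nor MSC, which are taken to stand for signal regulatory protein, the receptor through which CD47 restrains phagocytes, and mesenchymal stromal cells. HEK is a human embryonic kidney line. The samples were chosen by the treatment in their labels, 3 in the MSC-EV group and 3 in the HEK-EV group, which makes 6 of the 9 in the series. All 9 samples come from livers exposed to an intraperitoneal overdose of acetaminophen (APAP) that induced acute liver failure, taken 48 hours after it. Vesicles were injected into a vein 8 hours after APAP, and the remaining 3 samples, the PBS group, had PBS in their place and are given beside the results. The comparison holds the vesicle design constant and asks whether the cell of origin changes what the vesicles do to myeloid cells. The labels give no strain, sex, age, vesicle dose or species of the MSC, and no group received vesicles without SIRP, so cell source cannot be told apart from differences in dose, purity or SIRP load. They do not say that the 3 samples of a group are 3 mice, so p-values measure the spread between these samples, which may be technical.

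In a liver injured by APAP, monocytes with high surface Ly6C enter from the blood and mature into macrophages that clear dead hepatocytes, while neutrophils arrive early and leave or are cleared. Engulfed cells bring in lipid and cholesterol, which macrophages digest in lysosomes, bind with fatty-acid-binding proteins and export with apolipoprotein E. Macrophages with high expression of that programme, including Trem2, Gpnmb and Fabp5, are known as lipid-associated macrophages. CD11b, the product of Itgam, is carried by monocytes, macrophages and neutrophils and at a lower level by Kupffer cells, the resident macrophages of the liver.

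Values are transcripts per 1000000 (TPM), and differences are on the log2(TPM + 1) scale, which understates changes of genes with low TPM. The tables hold no read counts, so depth in reads is unknown. As a stand-in for it, coverage divided by FPKM, which grows with sequencing depth, was 6.58 to 6.85 in the MSC-EV samples, 6.25 to 6.47 in the HEK-EV samples and 5.28 to 6.32 in the PBS samples. Between 13130 and 13633 genes reached 1 TPM in a sample. Pancreatic acinar transcripts stood out in 4 vesicle samples, with shares of TPM of 0.390% (MSC-EV replicate 3), 0.139% (HEK-EV replicate 2), 0.0180% (MSC-EV replicate 1) and 0.00461% (HEK-EV replicate 1). The share was 0.00154% or less in the remaining vesicle samples and in PBS. Lyz2, lysozyme of myeloid cells, was at 13329 TPM or more in every sample, and Cd3e of T cells at 0.536 TPM or less.

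Of 13561 genes tested with limma, 870 (6.42%) had an adjusted p below 0.05, 228 of them (1.68%) higher after MSC vesicles and 642 (4.73%) lower. The called genes that were higher moved further, with a median log2 fold change of 0.71. Their median level in the MSC-EV group, where they were higher, was 10.8 TPM. Those that were lower had a median of -0.44 and a median HEK-EV level of 69.2 TPM. A fold change of at least 2 was reached by 48 higher and 32 lower genes. The values of the groups did not overlap for any of the 870, nor for 30.4% of all genes tested. The median over all genes tested was -0.02, and 3192 of them (23.5%) had an unadjusted p below 0.05. As whole samples the groups were not set apart by correlation. Pearson correlations were 0.9847 to 0.9888 within HEK-EV, 0.9797 to 0.9905 within MSC-EV and 0.9741 to 0.9901 between HEK-EV and MSC-EV samples. The highest of the last was HEK-EV replicate 2 with MSC-EV replicate 3.

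**Figure D1:**
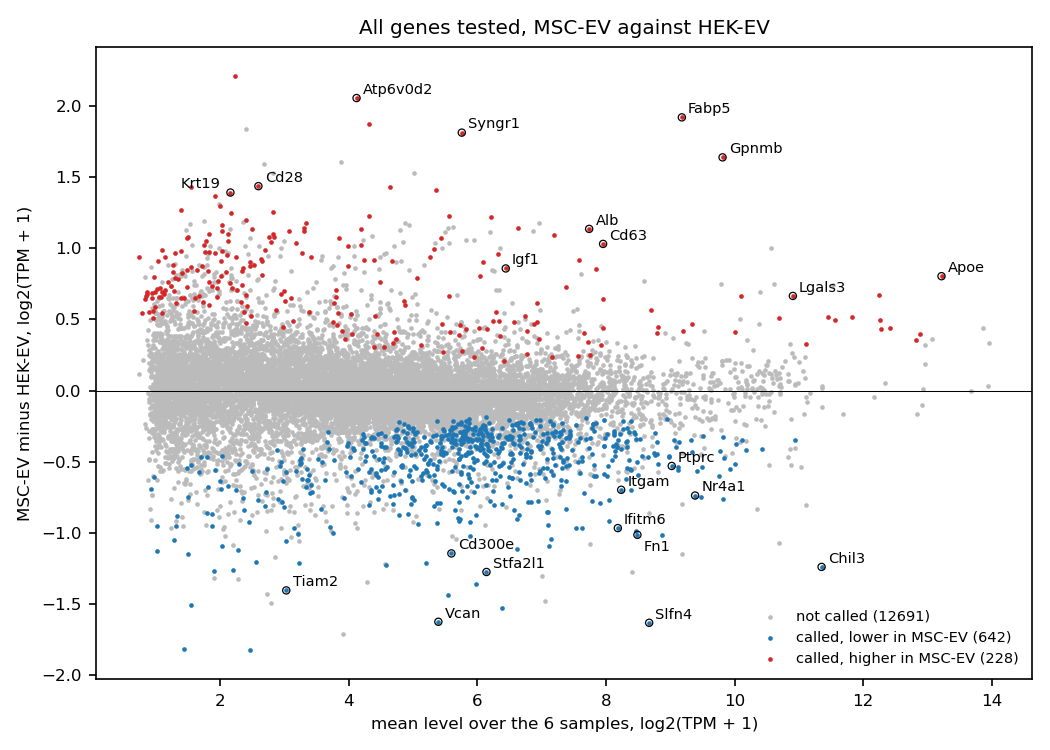
Each point is a gene tested, with its mean level over the 6 vesicle samples on the x axis (log2(TPM + 1)) and the MSC-EV minus HEK-EV difference on the y axis (log2). Red points are the 228 genes called higher and blue points the 642 called lower. Atp6v0d2, Fabp5 and Gpnmb are among the highest red points and Slfn4, Vcan and Chil3 among the lowest blue points, though other genes lie above Gpnmb and below Chil3.

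The number of calls fell to 33 or fewer without any 1 of 5 vesicle samples and was 644 without the remaining one. Without HEK-EV replicate 2, MSC-EV replicate 1 or MSC-EV replicate 2, 0 genes passed in limma (2864, 2351 and 2511 at an unadjusted p below 0.05). Without HEK-EV replicate 1 there was 1, Gm20056, a predicted gene named after its value was seen, and without HEK-EV replicate 3 there were 33. Without MSC-EV replicate 3 there were 644, and 516 of the 870 were among them. Since none of the 870 overlapped between the groups, leaving out 1 sample could not turn the sign of any, and their direction in these fits is no sign of stability. The smallest adjusted p with all samples was 0.0201 and 72 genes shared it. Standard errors of the 870 genes were 1.14 to 1.17 times as large at the median when a vesicle sample was left out. Within the samples that carried acinar transcripts, 2 against 2, 228 genes passed and 161 of them were among the 870. The side without them held 1 sample of each group and gave no test. Of the 118 genes named here that passed, 46 did not pass on FPKM, 42 with median-of-ratios scaling, 33 with quantile normalization, 33 with the acinar term and 92 without a filter on low values. The split between directions depended on the scaling: higher genes were 26.2% of the calls on TPM, 54.7% on FPKM, 48.1% after median-of-ratios scaling, 45.3% after quantile normalization and 41.8% with a depth covariate.

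**Figure D2:**
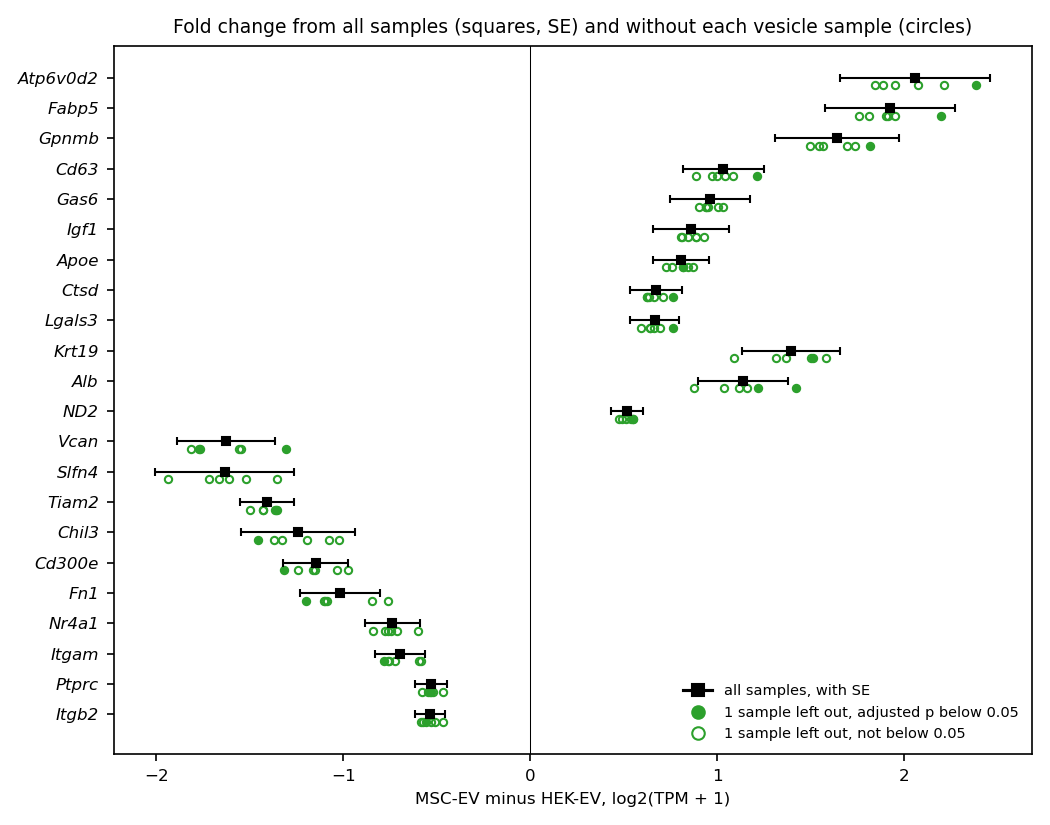
Squares show the MSC-EV minus HEK-EV difference (log2(TPM + 1)) of 22 genes with its SE, and circles the same difference without each of the 6 vesicle samples, filled where the adjusted p stayed below 0.05. Most circles are open; that every circle lies on the same side of 0 as its square follows from the lack of overlap between the groups.

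Part of the lipid-handling programme of macrophages was higher after MSC-derived vesicles. Of the 20 lipid-associated macrophage genes, 9 rose and 0 fell (45% called against 6.42% of all genes), with a median log2 fold change of 0.54. The members called were Gpnmb, Fabp5, Cd63, Apoe, Ctsd, Lgals3, Lgals1, Trem2 and Ctsb. Gpnmb, a membrane glycoprotein of lipid-laden macrophages (gene ID 93695, mm10, chromosome 6, 49036518 to 49058182), was at 1489, 1538 and 1056 TPM in MSC-EV replicates 1 to 3 and at 491, 461 and 351 TPM in the HEK-EV replicates. Each MSC-EV sample had over 2 times the level of any HEK-EV sample, and replicate 3 was the lowest of its group. The difference was 1.64 (SE 0.331, adjusted p = 0.0272), and the PBS samples, at 705, 323 and 252 TPM, spanned both sides of the HEK-EV range. Fabp5, which ferries fatty acids through the cytosol (gene ID 16592, mm10, chromosome 3, 10012585 to 10016610), was at 1121, 1039 and 608 TPM after MSC vesicles and at 243, 228 and 232 TPM after HEK vesicles. The HEK-EV values lay close together, and even the lowest MSC-EV value, that of replicate 3, was more than 2 times the highest of them. Its difference was 1.92 (SE 0.347, adjusted p = 0.0229), with PBS at 394, 146 and 167 TPM. Its relative Fabp4 was at 215, 209 and 168 TPM against 84.2, 91.6 and 99.2 TPM (1.09, SE 0.196, adjusted p = 0.0228).

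Apolipoprotein E, through which macrophages hand cholesterol to lipoproteins, was the most abundant transcript of that list. Apoe (gene ID 11816, mm10, chromosome 7, 19696244 to 19701310) was at 12920, 11487 and 11895 TPM in the MSC-EV samples, at 7046, 7588 and 6195 TPM in the HEK-EV samples and at 4197, 6431 and 5324 TPM in the PBS samples. The lowest MSC-EV value exceeded the highest of the other 6 samples. The difference was 0.80 (SE 0.149, adjusted p = 0.0237), and it was 0.38 (adjusted p = 0.217) after quantile normalization. Of 17 targets of the cholesterol-sensing LXR receptors and efflux genes Apoe alone was called (5.88%, at the 6.42% of all genes), and the median was 0.11, from 0.04 without HEK-EV replicate 1 to 0.18 without HEK-EV replicate 3. Of 23 genes of cholesterol synthesis and uptake limma called 0, and their median of -0.01 changed sign with the scaling. An unadjusted p below 0.05 was reached by 3 of them, all lower, against 23.5% of all genes. Among 22 genes of fatty acid uptake and PPAR signalling, Fabp5 and Fabp4 were the members called (9.09%, near the share of all genes). The median of these 22 was 0.03, from -0.004 without HEK-EV replicate 1 to 0.06 without HEK-EV replicate 2.

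A few lysosomal proteases were higher too, and of the proton pump that acidifies the lysosome 1 of 18 subunits passed (5.56%, near the 6.42% of all genes). Atp6v0d2, the d2 subunit of the vacuolar proton pump found in macrophages and osteoclasts (gene ID 242341, mm10, chromosome 4, 19876838 to 19922566), was at 35.2, 30.3 and 16.1 TPM in the MSC-EV samples and at 6.99, 5.59 and 4.10 TPM in the HEK-EV samples. All MSC-EV values lay above all HEK-EV values, and the PBS samples, at 9.59, 2.91 and 3.07 TPM, included 1 above the HEK-EV range. The difference of 2.06 (SE 0.401, adjusted p = 0.0256) was the largest among the genes the naming rule considers. The other 17 pump subunits lay between -0.29 (Atp6v0a2) and 0.41 (Atp6v1c1), and none of them was called. Of 37 lysosomal hydrolases and membrane proteins, 5 rose (Ctsk, Cd63, Ctsd, Ctsb and Cd68) and 1, Ctsc, fell (16.2% called against 6.42% of all genes), with a median of 0.14. Cd63, Ctsd and Ctsb are also among the lipid-associated macrophage genes called, so the lists are not independent. Cathepsin D, the aspartic protease Ctsd, was at 6348, 6349 and 5242 TPM against 3701, 3963 and 3575 TPM (0.67, SE 0.139, adjusted p = 0.029). After quantile normalization Ctsd was at 0.42 (adjusted p = 0.128) and Ctsb, at 0.52 on TPM, was at 0.32 (adjusted p = 0.224). Ctsk, a collagen-digesting cathepsin, was at 11.6, 11.8 and 8.0 TPM against 3.56, 4.50 and 4.61 TPM (1.12, SE 0.174, adjusted p = 0.0201). Cathepsin C, which activates the serine proteases of neutrophil and cytotoxic granules, was at 377, 343 and 371 TPM against 532, 456 and 489 TPM (-0.44, SE 0.0851, adjusted p = 0.0256). Ctsb overlaps another annotated gene, so part of its signal is uncertain.

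Lysosomal genes are known to share the CLEAR element, bound by TFEB and related factors, and the promoter of Ctsd is printed because it is the called lysosomal gene that held its letters. The 250 bases before its start (RefSeq, GRCm38.p6, chr7:142387828-142388077, minus strand) are given with the searched letters CACGTGAC in capitals, which begin 245 and 98 bases before the start.
Ctsd: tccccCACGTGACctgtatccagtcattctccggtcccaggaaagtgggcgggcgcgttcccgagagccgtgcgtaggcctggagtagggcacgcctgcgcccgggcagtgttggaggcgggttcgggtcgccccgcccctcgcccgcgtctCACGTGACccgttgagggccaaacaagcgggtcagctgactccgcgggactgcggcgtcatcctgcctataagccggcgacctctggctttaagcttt
CACGTGAC or its reverse complement GTCACGTG was found, on both strands and from 250 bases before to 50 after the start, in 8 of the 29 lysosomal genes with a promoter entry (27.6%) and in 2.55% of 27025 genes. The other 7 were Ctsa, Lgmn, Glb1, Naglu, Arsa, Lamp1 and Mcoln1, none of which was called. A match is a description of these letters and shows no binding. The promoters of Gpnmb and Cd63 did not hold them, and Atp6v0d2 and Fabp5 had no entry.

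Secreted factors that act on liver repair moved in both directions. Of 13 such genes, Gas6, Vegfb and Igf1 rose, and Osm and Tgfb1 fell (38.5% called, against 6.42% of all genes). Gas6, which bridges dying cells to the receptors that engulf them, was at 113, 106 and 94.4 TPM in the MSC-EV samples and at 51.6, 56.4 and 51.4 TPM in the HEK-EV samples (0.96, SE 0.213, adjusted p = 0.0339). Igf1, insulin-like growth factor 1, was at 119, 107 and 107 TPM against 56.1, 67 and 59.2 TPM (0.86, SE 0.201, adjusted p = 0.0401). In both the groups were well apart, and 1 PBS sample, replicate 1, reached 68.3 TPM of Gas6 and 83.5 TPM of Igf1, between them. Oncostatin M, an interleukin-6 family cytokine, was at 136, 130.1 and 122 TPM against 196, 180.4 and 229 TPM (-0.63, SE 0.161, adjusted p = 0.0494), and transforming growth factor beta 1 at 266, 278 and 299 TPM against 361, 366 and 352 TPM (-0.35, SE 0.0595, adjusted p = 0.0208). Of 23 alternative fits, Osm did not pass in 16 and Tgfb1 in 7. Timp2, an inhibitor of matrix metalloproteinases, was the 1 member called of 14 in its family list (0.80, SE 0.195, adjusted p = 0.0437), 7.14% and near the share of all genes. Gas6, Igf1 and Timp2 each overlap another annotated gene.

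Other genes with the largest rises belong to several functions. Syngr1, a vesicle membrane protein that overlaps another annotated gene, was at 96.6, 87.4 and 66.1 TPM against 21.7, 24.3 and 22.1 TPM (1.81, SE 0.333, adjusted p = 0.0232). Anpep, the myeloid surface aminopeptidase CD13, was at 70.5, 59.1 and 46 TPM against 20.3, 22.7 and 20.4 TPM (1.41, SE 0.282, adjusted p = 0.0267). Neither overlapped between the groups, and MSC-EV replicate 3 was the lowest MSC-EV sample for both, as it was for Gpnmb, Fabp5, Atp6v0d2 and Cd63. Cd28, the costimulatory receptor known from T cells, rose from 2.46, 2.52 and 1.67 to 9.47, 8.68 and 5.37 TPM in replicates 1 to 3 (1.44, SE 0.26, adjusted p = 0.0229). Its ligand Cd86 fell from 65.2, 72.8 and 68.6 to 47.6, 40.9 and 53.9 TPM (-0.54, SE 0.102, adjusted p = 0.0251). Hvcn1, the voltage-gated proton channel of phagocytes, Blnk, an adaptor of the B cell receptor that macrophages also express, and Cbr2, a carbonyl reductase, rose by 1.23, 1.23 and 1.22. Among 20 lineage factors, Bhlhe41 (1.26), Cebpa (0.73) and Cd68 (0.33) rose, and Spi1 (-0.20), the master factor of the myeloid lineage, and Csf2rb (-0.33), the shared GM-CSF receptor subunit, fell. These 5 were 25% of the list, against 6.42% of all genes. The median of those 20 was -0.09, -0.12 to -0.04 on leaving out 1 sample (without MSC-EV replicate 3 and HEK-EV replicate 1), and changed sign with quantile normalization (0.009) and with depth as a covariate (0.008). Spi1 was at -0.09 (adjusted p = 0.293) after quantile normalization and at -0.13 (adjusted p = 0.323) on FPKM.

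Most MHC class II genes, with which macrophages and dendritic cells present antigen, lay higher without passing the test. H2-Aa was at 2151, 2246 and 1511 TPM in the MSC-EV samples and at 1133, 1417 and 957 TPM in the HEK-EV samples (0.75, SE 0.196, adjusted p = 0.0541). H2-Eb1 was at 1202, 1283 and 852 TPM against 653, 786 and 539 TPM (0.75, SE 0.193, adjusted p = 0.0521). The lowest MSC-EV sample, replicate 3, came close to the highest HEK-EV sample, replicate 2, in both. Of 10 class II genes limma called 0 (8 at an unadjusted p below 0.05, against 23.5% of all genes). Their median was 0.64, with 9 positive and 1 negative, and fits with other settings called up to 6.

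**Figure D3:**
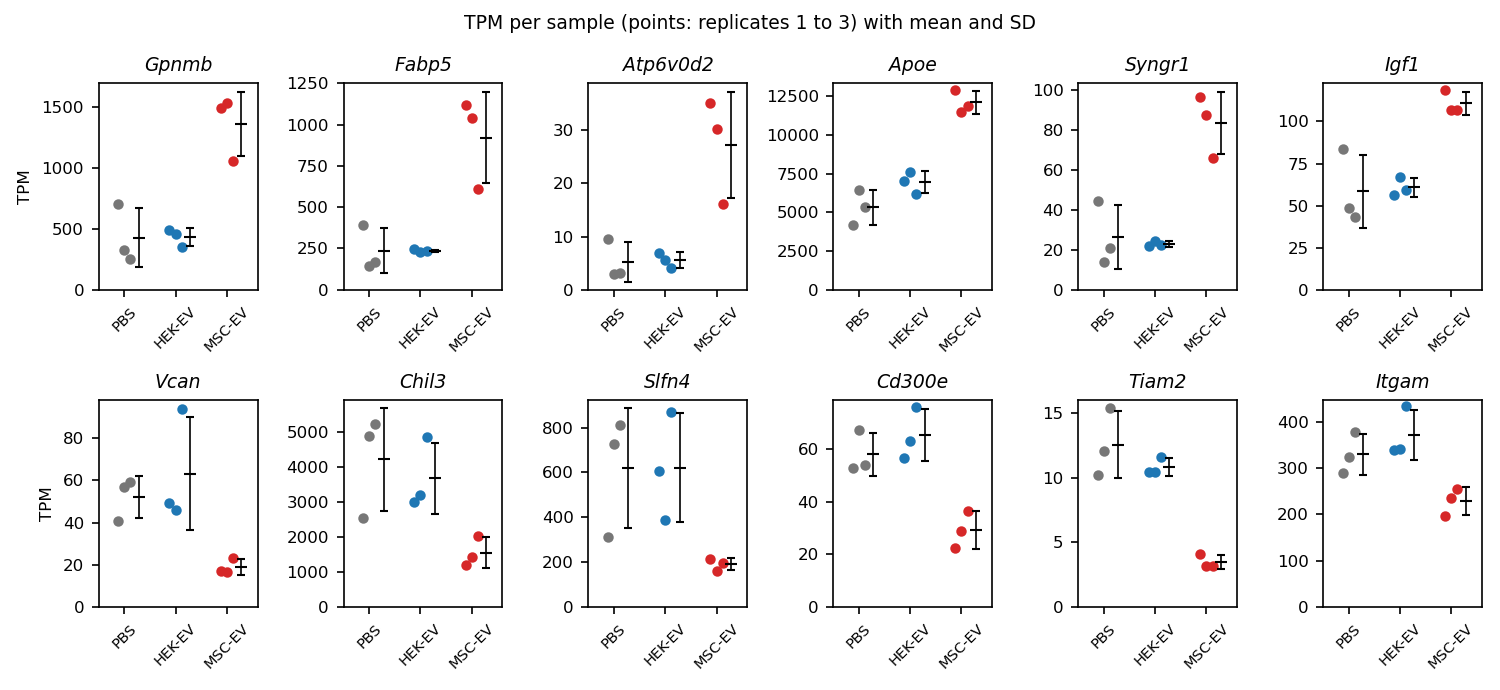
TPM of 12 genes (y axes, each from 0) per sample, grouped by treatment with replicates 1 to 3 from left to right, with the mean and SD of each group in black. The 6 genes in the upper row have all MSC-EV points above all HEK-EV points, and the 6 in the lower row all below; 1 PBS sample, replicate 1, lies above the HEK-EV points for all upper genes except Apoe.

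Several genes of newly arrived monocytes were lower after MSC-derived vesicles. Of 15 genes of Ly6C-high monocytes, 7 fell and 0 rose (46.7% called, against 4.73% of all genes called lower), and the median was -0.97. Those called included Vcan, Chil3, Fn1, Hp, Ifitm6 and F13a1. Vcan, the matrix proteoglycan versican (gene ID 13003, mm10, chromosome 13, 89655309 to 89743027), was at 16.9, 16.6 and 23.1 TPM in the MSC-EV samples and at 49.2, 46 and 94 TPM in the HEK-EV samples. Every MSC-EV sample lay below every HEK-EV sample, and HEK-EV replicate 3 stood above the rest. The difference was -1.63 (SE 0.261, adjusted p = 0.0203), and it was -1.30 (SE 0.181, adjusted p = 0.0391) without HEK-EV replicate 3. Vcan did not pass in limma without HEK-EV replicate 1 (adjusted p = 0.0607), HEK-EV replicate 2 (0.0519), MSC-EV replicate 1 (0.0902) or MSC-EV replicate 2 (0.0659). The PBS samples, at 40.8, 56.8 and 59.1 TPM, overlapped the HEK-EV range. Fn1, fibronectin, was at 163, 257 and 298 TPM against 417, 419.7 and 593 TPM (-1.01, SE 0.214, adjusted p = 0.03). Vcan and F13a1 overlap other annotated genes. Ly6c2 itself, at 359, 381 and 337 TPM against 936, 714 and 753 TPM, did not pass (-1.15, SE 0.295, adjusted p = 0.0515), and it has a near-identical neighbour. In bulk RNA, fewer cells of a type and less of its RNA per cell cannot be told apart.

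The chitinase-like proteins of alternatively activated macrophages were lower as well. Chil3 (gene ID 12655, mm10, chromosome 3, 106147554 to 106167564) was at 1206, 1421 and 2035 TPM in the MSC-EV samples, 2991, 3184 and 4840 TPM in the HEK-EV samples and 2537, 4880 and 5224 TPM in the PBS samples (-1.24, SE 0.303, adjusted p = 0.0445). Chil3 did not pass on FPKM (adjusted p = 0.0623), with median-of-ratios scaling (0.063), without mitochondrial genes (0.0512), with the acinar term (0.0611) or without PBS replicate 2 (0.0567). Chil4, its close copy, was at 17, 18.7 and 27.9 TPM against 40.6, 46.5 and 63.8 TPM (-1.22, SE 0.291, adjusted p = 0.0426). All MSC-EV values of both were below all HEK-EV and PBS values, and because the genes are near-identical their reads can be split wrongly between them. Of 14 alternative activation genes, Chil3, Chil4, Tgm2, Tgfb1 and Stat6 fell and 0 rose (35.7% called, against 4.73% of all genes called lower). Mrc1, the mannose receptor by which such cells are usually recognised, had a difference of 0.03 (adjusted p = 0.955).

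Members of the Schlafen, Ly6 and Ms4a families, which are prominent in monocytes, were also among the genes that fell. Slfn4, which restrains myeloid growth (gene ID 20558, mm10, chromosome 11, 83175172 to 83190216), was at 213, 162 and 197 TPM in the MSC-EV samples and at 607, 387 and 872 TPM in the HEK-EV samples. The HEK-EV samples spread more than 2-fold, but the lowest, replicate 2, was still above every MSC-EV sample. The difference was -1.63 (SE 0.37, adjusted p = 0.0358), with PBS at 314, 729 and 814 TPM. Slfn4 did not pass on FPKM (adjusted p = 0.0501), with median-of-ratios scaling (0.0542) or with the acinar term (0.0522). Slfn1 and Slfn2 fell too (-0.92 and -0.47), which made 3 of 7 Schlafen genes. Of 8 Ly6 genes, Ly6a2 (-1.53) and Ly6d (-0.57) fell, and of 9 Ms4a genes, Ms4a4b (-0.80) and Ms4a8a (-0.79) did. Ly6d did not pass in 18 of the 21 alternative fits that tested it. Of 23 such fits, Ly6a2 did not pass in 11 and Ms4a4b and Ms4a8a in 13 each. The shares called were 42.9%, 25% and 22.2%, against 4.73% of all genes called lower. All 7 Schlafen genes were negative, and 1 Ly6 gene and 2 Ms4a genes were positive. The medians of the families were -0.50, -0.58 and -0.56, and members of each are near-identical copies whose reads may be shared.

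Of the 15 lower genes with the largest change, Cd300e, Ceacam1 and Ace encode surface proteins. Cd300e, an activating receptor, was at 22.4, 28.8 and 36.6 TPM in the MSC-EV samples and at 56.5, 63.4 and 76 TPM in the HEK-EV samples (-1.15, SE 0.174, adjusted p = 0.0201). Ceacam1, an adhesion receptor, was at 47.1, 70.4 and 65.6 TPM against 135, 115 and 146 TPM (-1.11, SE 0.195, adjusted p = 0.022). Ace, the angiotensin-converting enzyme, was at 67.1, 99 and 96.1 TPM against 213, 177 and 169 TPM (-1.10, SE 0.207, adjusted p = 0.0245). For all 3 genes the highest MSC-EV sample was below the lowest HEK-EV and the lowest PBS sample. Ceacam1 and Ace each overlap another annotated gene.

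Interferon-stimulated genes lay lower in the MSC-EV group throughout, and none of them passed the test. All 28 had a negative difference, with a median of -0.50, and 22 of them lay lower without overlap between the groups, as did 17.7% of all genes. The number called by limma was 0, and 18 had an unadjusted p below 0.05, against 23.5% of all genes. Oas3, an enzyme that senses viral double-stranded RNA, was at 102, 85.1 and 107 TPM in the MSC-EV samples, 188, 144 and 171 TPM in the HEK-EV samples and 134, 259.9 and 210.0 TPM in the PBS samples (-0.77, SE 0.212, adjusted p = 0.0623). Oas1g, of the same family, was at 75.6, 59.6 and 70.5 TPM, 101, 90.8 and 100.4 TPM and 87.9, 126 and 108 TPM (-0.50, SE 0.129, adjusted p = 0.0513), and it has near-identical copies. MSC-EV replicate 2 was the lowest of the 6 vesicle samples for both. Fits with other settings called up to 11 of the 28 (without PBS replicate 1), and 7 passed with the 6 vesicle samples alone. Without 1 sample at a time the median of the 28 ran from -0.61 to -0.36.

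The promoters of Oas3 and Oas1g are printed because 12 of the 20 interferon genes with a promoter entry (60%) held the core of the interferon-stimulated response element (GAAA, any 2 bases, GAAA, on either strand), against 3.99% of 27025 genes. The 250 bases before each start are from RefSeq (GRCm38.p6), both on the minus strand, at chr5:120777660-120777909 and chr5:120887614-120887863, with the matches in capitals. They begin 75 bases before the start of Oas3 and 18 and 12 bases before that of Oas1g, where both matches share bases.
Oas3: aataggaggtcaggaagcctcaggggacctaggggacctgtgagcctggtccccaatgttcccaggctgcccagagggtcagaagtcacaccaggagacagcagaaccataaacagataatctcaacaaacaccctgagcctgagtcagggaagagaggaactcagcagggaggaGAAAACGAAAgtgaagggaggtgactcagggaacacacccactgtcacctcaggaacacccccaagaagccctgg
Oas1g: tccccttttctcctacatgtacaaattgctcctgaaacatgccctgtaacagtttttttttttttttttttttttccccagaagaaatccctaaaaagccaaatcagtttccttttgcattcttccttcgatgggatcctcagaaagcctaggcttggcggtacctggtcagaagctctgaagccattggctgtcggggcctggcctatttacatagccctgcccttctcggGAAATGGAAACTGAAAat
Of 7 Schlafen genes with an entry, Slfn5, Slfn8 and Slfn9 held the same letters in the window from 250 bases before to 50 after the start, and the 3 Schlafen genes that fell did not. No binding was measured here.

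Several integrins, with which myeloid cells adhere, were lower in the MSC-EV group. Itgam, whose product CD11b was used to isolate the cells (gene ID 16409, mm10, chromosome 7, 128062640 to 128118491), was at 196, 235 and 255 TPM in the MSC-EV samples, 339, 342 and 434 TPM in the HEK-EV samples and 289, 324 and 377 TPM in the PBS samples. Its partner Itgb2 was at 529.5, 624 and 603 TPM against 881, 806 and 858 TPM (-0.54, SE 0.081, adjusted p = 0.0201), and Itgal, the alpha chain of LFA-1, at 264, 258 and 284 TPM against 431, 371 and 385 TPM (-0.55, SE 0.0862, adjusted p = 0.0201). All MSC-EV values of the 3 genes were below all HEK-EV and PBS values. Of 15 integrin genes 6 fell and 0 rose (40% called, against 4.73% of all genes called lower), with a median of -0.33, and the others called were Itgb3, Itga5 and Itgb1.

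The SIRP family, to which the cargo of the vesicles is read to belong, divided. Sirpa, the inhibitory receptor for CD47, was level, at 804, 778 and 807 TPM after MSC vesicles, 835, 771 and 775 TPM after HEK vesicles and 768, 783 and 703 TPM after PBS (0.01, SE 0.0606, adjusted p = 0.967), and its sign turned when single samples were left out. Sirpb1c, an activating relative, was at 179.6, 195 and 206 TPM against 341, 305 and 345 TPM (-0.77, SE 0.126, adjusted p = 0.0203). Sirpb1b (-0.72) and Sirpb1a (-0.54) fell as well, and the Sirpb1 genes are near-identical copies, so the 3 values are not independent. Ptpn6, the phosphatase SHP-1 that SIRP alpha recruits, was at 533, 563 and 550.2 TPM against 816, 710.3 and 702 TPM (-0.43, SE 0.0895, adjusted p = 0.0286). Cd47, which overlaps another annotated gene, was at 79.3, 71 and 79.2 TPM against 106, 88.2 and 88.9 TPM (-0.30, SE 0.0891, adjusted p = 0.0791). RNA levels do not show how much SIRP protein the vesicles brought in, which was not measured here.

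Some genes that arm phagocytes fell, and most members of these lists did not pass. The shares called were 50% of the oxidase, 25% of the Toll-like, 16.7% of the Fc gamma, 21.1% of the complement and 13.6% of the efferocytosis genes, against 6.42% of all genes. Of 6 NADPH oxidase genes, whose enzyme makes the oxidative burst, 3 fell, among them Ncf4 (-0.58, SE 0.103, adjusted p = 0.0228) and Rac2 (-0.39). Ncf4 was at 145, 165 and 153 TPM against 250.3, 231 and 212 TPM, with no overlap. Of 16 Toll-like receptor genes, Tlr5 (-0.71), the adaptor Myd88 (-0.55), Tlr7 (-0.44) and Tlr2 (-0.24) fell. After quantile normalization Tlr2 was at -0.14 (adjusted p = 0.142). Myd88 was at 131, 124 and 129 TPM against 205, 164 and 193 TPM (SE 0.114, adjusted p = 0.0292). Fcgr2b, the inhibitory receptor for IgG, was the 1 member called of 6 Fc gamma receptors, at 253, 248 and 277 TPM against 398, 384 and 352 TPM (-0.54, SE 0.0785, adjusted p = 0.0201), and sinusoidal endothelial cells also express it. Of 19 complement genes 4 fell and 0 rose, among them the anaphylatoxin receptors C5ar1 (-0.46) and C5ar2 (-0.54). Of 23 alternative fits, Tlr7 did not pass in 17, Tlr2 and C5ar1 in 15 each and Rac2 in 14. Among 22 efferocytosis genes Gas6 rose and Itgb3 and Pros1, protein S, fell, and the median of -0.01 changed sign with the scaling.

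Of 18 regulators of Rac, the small GTPase that drives membrane ruffling and engulfment, 7 fell and 1 rose (44.4% called, against 6.42% of all genes). Tiam2, a Rac exchange factor (gene ID 24001, mm10, chromosome 17, 3326313 to 3519397), was at 4.07, 3.19 and 3.15 TPM in the MSC-EV samples, 10.4, 10.4 and 11.6 TPM in the HEK-EV samples and 10.2, 12 and 15.4 TPM in the PBS samples. The groups were tight and far apart, with a difference of -1.41 (SE 0.143, adjusted p = 0.0201). Tiam2 was also among the 33 genes called without HEK-EV replicate 3, of which 32 were among the 870. Of 23 alternative fits Tiam2 did not pass in 4, those without replicate 1 or 2 of either vesicle group. Tiam1, its relative, was at 14.5, 15 and 19.4 TPM against 25.9, 22.4 and 25.8 TPM (-0.58, SE 0.112, adjusted p = 0.0256). Lurap1l went the other way, at 3.91, 5.44 and 4.32 TPM against 1.31, 1.56 and 1.76 TPM (1.12, SE 0.134, adjusted p = 0.0201), and was lowest in PBS at 0.857, 0.891 and 0.998 TPM. Tiam2 and Tiam1 overlap other annotated genes.

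Immediate early genes, which are switched on within minutes of a stimulus and also by handling of tissue, had 7 of 19 members called lower (36.8%, against 4.73% of all genes). All 19 differences were negative, as were 7282 of the 13561 genes tested, and the median was -0.42. The 7 were Ier2, Fos, Nr4a1, Egr1, Klf4, Klf2 and Jund. Fos was at 580.1, 593 and 839 TPM in the MSC-EV samples, 1010, 1063 and 1322 TPM in the HEK-EV samples and 1284, 1421 and 1611 TPM in the PBS samples (-0.76, SE 0.157, adjusted p = 0.0286). Klf4, needed for monocyte development, was at 36.9, 49.5 and 49.5 TPM, 70.0, 67.2 and 70.7 TPM and 101, 109 and 106 TPM in the same order (-0.61, SE 0.103, adjusted p = 0.0208). Klf4 was ordered MSC-EV below HEK-EV below PBS with no overlap between the 3 groups, while for Fos the HEK-EV and PBS ranges overlapped. Nr4a1, the orphan receptor on which Ly6C-low monocytes depend, was at 478, 512 and 501 TPM against 721, 788 and 1005 TPM (-0.74, SE 0.147, adjusted p = 0.0263).

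The cytokine, inflammasome, Nrf2 and iron lists had 11.1% to 19.2% of their members called, against 6.42% of all genes, glycolysis had 8.0%, and the chemokine list none. Of 17 cytokine genes, whose median was -0.24 with 14 negative, Osm, Tnfsf14 (-0.42) and Tgfb1 fell, and Tnf and Il1b had differences of -0.37 (adjusted p = 0.174) and -0.54 (adjusted p = 0.112). Of 28 chemokine and receptor genes limma called 0 (11 at an unadjusted p below 0.05, against 23.5% of all genes). Their median was -0.12 (-0.23 to -0.001 on leaving out 1 sample), and it was 0.09 in the samples with acinar transcripts only. Of 18 inflammasome genes, Naip2 (-0.43), a sensor of bacterial secretion systems, and Mefv (-0.54), which encodes pyrin, fell. Among 26 Nrf2 and glutathione genes, Gsr, Gpx1, Nfe2l2 and G6pdx fell and Gpx4 rose, and the median was 0.01. Gsr, glutathione reductase, was at 164, 179 and 179 TPM against 288, 272 and 347 TPM (-0.79, SE 0.152, adjusted p = 0.0251), and it overlaps another annotated gene. Of 25 glycolysis and hypoxia genes Pfkp (-0.63) and the lactate exporter Slc16a3 (-0.61) fell, and of 17 iron genes Trf (0.44) and Hpx (1.02), both also hepatocyte products, rose and Slc11a1 (-0.30) fell. After quantile normalization Nfe2l2 was at -0.15 (adjusted p = 0.132) and Slc11a1 at -0.20 (adjusted p = 0.0635). The medians of glycolysis and of efferocytosis turned sign under some scalings. That of the Nrf2 list turned sign in 3 fits that left out 1 sample, reaching -0.02 without HEK-EV replicate 1.

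**Figure D4:**
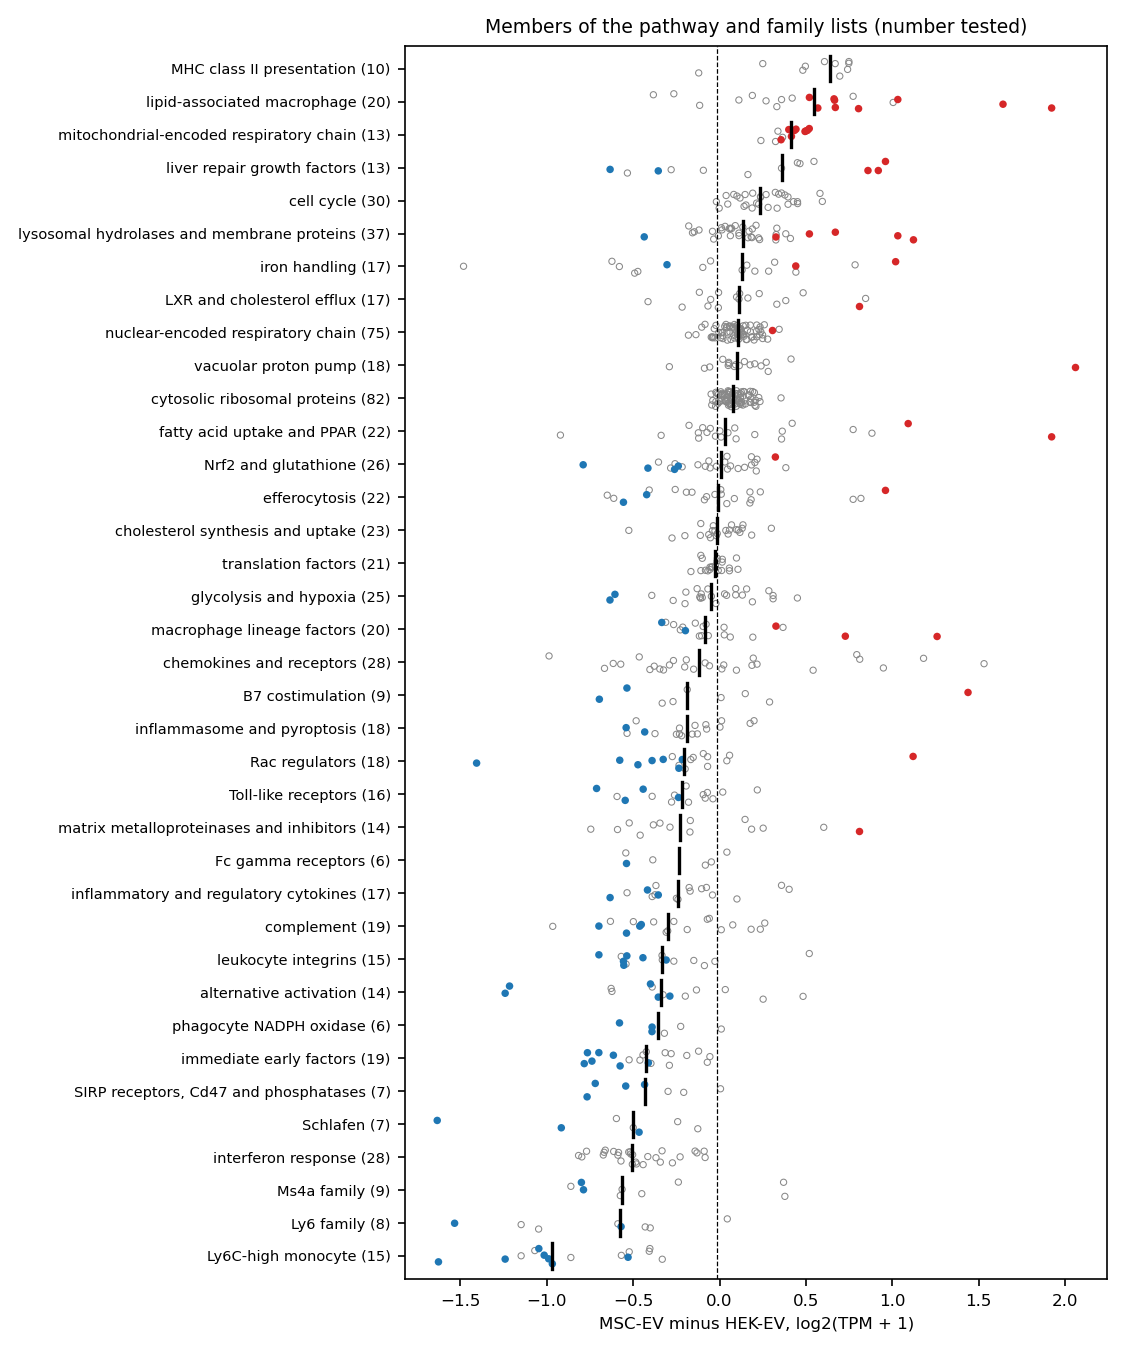
Each circle is a gene of a pathway or family list, placed on the x axis by its MSC-EV minus HEK-EV difference (log2(TPM + 1)), and lists are ordered on the y axis by their median (black bar). Filled red and blue circles passed the test, and the dashed line is the median of all genes tested, -0.02; lipid-associated macrophage genes stand near the top and Ly6C-high monocyte genes at the bottom.

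Markers of mature neutrophils summed to less after MSC vesicles than after HEK vesicles. The 14 genes of mature neutrophils summed to 3985 to 5039 TPM in the MSC-EV samples, 6289 to 8377 TPM in the HEK-EV samples and 4050 to 6912 TPM in the PBS samples. Of these 14, Csf3r, Sorl1, Cxcr1 and Stfa2l1 fell and 0 rose (28.6% called, against 4.73% of all genes called lower), and the median was -0.57. Cxcr1, at a mean of 1.27 TPM against 2.30 TPM, did not pass in 17 of the 21 alternative fits that tested it. Of 23 such fits, Csf3r did not pass in 14, Stfa2l1 in 7 and Sorl1 in 6. Csf3r, the receptor for the neutrophil growth factor G-CSF, was at 488, 469 and 451 TPM against 585, 555 and 658 TPM (-0.35, SE 0.0814, adjusted p = 0.0394), and PBS was at 439, 474 and 519.7 TPM. S100a9, the most abundant of them, was at 1842, 1618 and 1372 TPM against 2612, 2512 and 3330 TPM (-0.81, SE 0.224, adjusted p = 0.0645). S100a9 and its partner S100a8 made up most of the sum (2612 and 1475 of 6420 TPM in HEK-EV replicate 1), and S100a8 did not pass either (-0.83, SE 0.236, adjusted p = 0.0691). HEK-EV replicate 3 was the highest vesicle sample for Csf3r, S100a9 and S100a8. Of 10 granule genes Fcnb (-1.26) and Cd177 (-0.70) fell, while lactoferrin, Ltf, rose from 1.45, 2.31 and 2.84 to 6.72, 4.76 and 7.43 TPM (1.20, SE 0.187, adjusted p = 0.0201). That made 30% of the granule genes called, against 6.42% of all genes. Stfa2l1 has near-identical copies, and Ly6g, the usual neutrophil marker, lay at 4.50 TPM or less in every sample. Osm, Slfn4, Lrg1 (-1.44), Hp and the oxidase genes that fell are also expressed by neutrophils. Not all of them followed these markers from sample to sample: Ncf4 was lowest of its group in HEK-EV replicate 3, where the mature neutrophil sum was highest. The part of neutrophil number in these falls was not tested.

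Many transcripts of bile duct cells and some of hepatocytes, which are not CD11b+ cells, were higher in the MSC-EV group. Of 21 biliary genes 15 rose and 0 fell (71.4% called, against 1.68% of all genes called higher), with a median of 0.77. Krt19, a keratin of bile ducts, was at 3.82, 8.50 and 4.29 TPM in the MSC-EV samples, 1.29, 1.75 and 1.12 TPM in the HEK-EV samples and 0.891, 0.884 and 1.74 TPM in the PBS samples (1.39, SE 0.262, adjusted p = 0.0242). MSC-EV replicate 2, whose acinar share was at the level of the PBS samples, was the highest. Tspan8 (1.30), Anxa13 (1.10) and the epithelial cadherin Cdh1 (0.81) rose as well, all at single-digit TPM. Tm4sf4, another gene of liver epithelium, was at 10.2, 16.3 and 12.5 TPM against 4.86, 5.41 and 5.0 TPM (1.18, SE 0.155, adjusted p = 0.0201). Of 22 hepatocyte genes 7 rose and 0 fell (31.8% called), with a median of 0.82, which was 0.53 without MSC-EV replicate 2 and 1.05 without HEK-EV replicate 3. Alb, serum albumin, was at 278, 329 and 257 TPM against 89.9, 126 and 193 TPM (1.14, SE 0.243, adjusted p = 0.0308), and Serpina1e, of a family of near-identical copies, at 35.5, 35.6 and 33.4 TPM against 6.68, 17.1 and 15.8 TPM (1.43). Hepatocyte genes summed to 865 to 1061 TPM, 457 to 706 TPM and 571 to 675 TPM after MSC vesicles, HEK vesicles and PBS. Spp1, osteopontin, counts both as a biliary and as a lipid-associated macrophage gene and was at 1970, 2336 and 1754 TPM against 884, 963 and 1172 TPM (1.0, SE 0.263, adjusted p = 0.0543). Spp1 made up most of the biliary sum, 1970 of 2040 TPM in MSC-EV replicate 1 and 884 of 924 TPM in HEK-EV replicate 1. Apoe is also made by hepatocytes, and the part of these transcripts in the differences of the shared genes was not tested.

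Genes of sinusoidal endothelium and Kupffer cells gave 1 call between them. All 15 endothelial genes were negative, and Fcgr2b was the member called (6.67%, near the 6.42% of all genes). An unadjusted p below 0.05 was reached by 10 of them, against 23.5% of all genes, and other fits called up to 7. The median was -0.67, and it ran from -0.93 to -0.23 over the alternatives. Clec4g, a lectin of these vessels, was at 43.8, 32.1 and 62.2 TPM against 49, 92.2 and 108 TPM (-0.81, SE 0.29, adjusted p = 0.127), and the groups overlapped through HEK-EV replicate 1. Their sums were 458 to 665 TPM, 708 to 1042 TPM and 860 to 946 TPM in the MSC-EV, HEK-EV and PBS samples. Of 16 Kupffer cell genes limma called 0 (5 at an unadjusted p below 0.05, against 23.5% of all genes), and 12 were negative and 4 positive. The Kupffer cell median was -0.35, from -0.59 without HEK-EV replicate 1 to -0.17 without MSC-EV replicate 2. Kupffer cell sums overlapped, at 2286 to 3748 TPM in the MSC-EV samples and 2754 to 5024 TPM in the HEK-EV samples. Clec4f, the defining lectin of Kupffer cells, was at 307, 265 and 498 TPM against 323, 592 and 705 TPM (-0.58, SE 0.296, adjusted p = 0.278), and it ran from -0.91 without HEK-EV replicate 1 to -0.35 without HEK-EV replicate 3. Sums over 15 general myeloid genes, to which Lyz2 gave the most, overlapped, at 26990 to 32660 TPM and 28300 to 31870 TPM. Within that list Itgam, Ptprc, Coro1a and Spi1 fell, Cd68 rose (33.3% called, against 6.42% of all genes), and 12 genes were negative. Ptprc, which encodes CD45, was at 418, 425 and 428 TPM against 669, 575 and 597 TPM (-0.53, SE 0.0872, adjusted p = 0.0203), and Coro1a, an actin-binding protein of leukocytes, had a difference of -0.55.

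**Figure D5:**
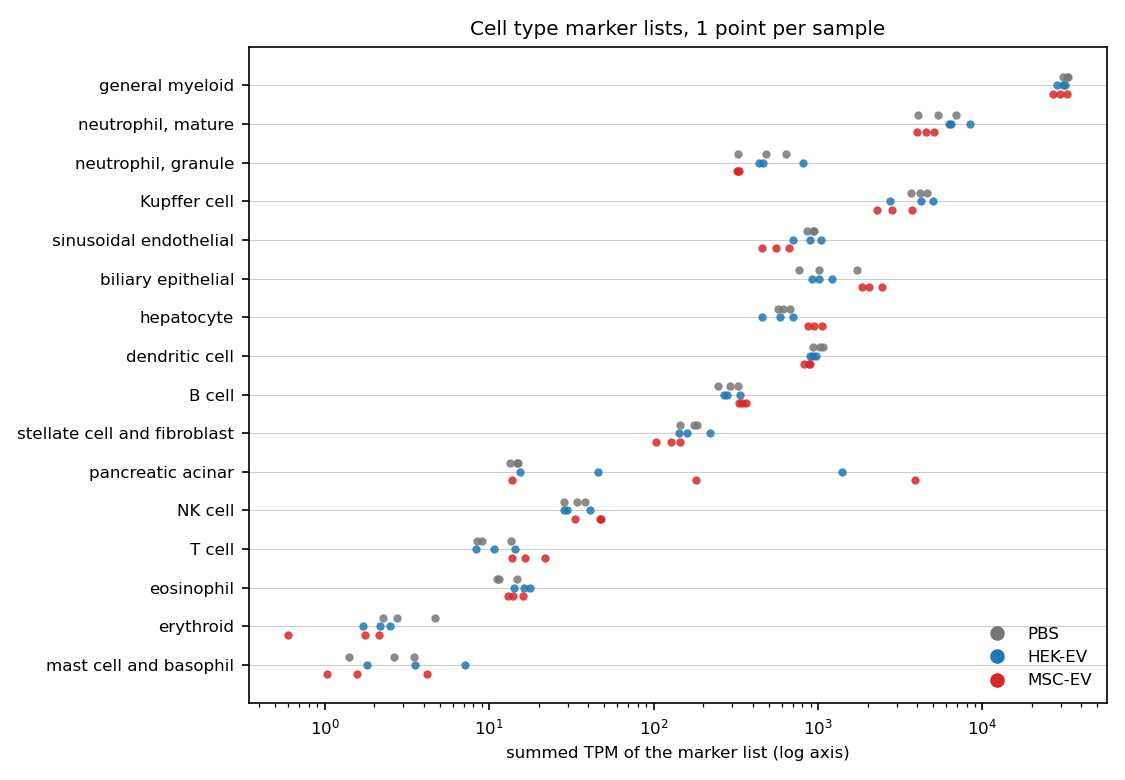
Summed TPM of each cell type marker list (log x axis), 1 point per sample, with the groups in grey (PBS), blue (HEK-EV) and red (MSC-EV). The red points lie to the right of the blue points for biliary genes (a sum that is mostly Spp1, which did not pass) and hepatocyte genes and to the left for neutrophil and sinusoidal endothelial genes, while acinar transcripts are spread over 2 samples of each vesicle group.

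Of 13 respiratory chain genes encoded by the mitochondrial genome, 9 rose and 0 fell, against 1.68% of all genes called higher, and the median was 0.42. All 13 were higher without overlap between the groups, as were 12.7% of all genes. ND2 was at 3311, 3417 and 3146 TPM in the MSC-EV samples, 2393, 2350 and 2149 TPM in the HEK-EV samples and 2490, 2036 and 2317 TPM in the PBS samples (0.52, SE 0.0862, adjusted p = 0.0203). Of 75 nuclear-encoded members of the same complexes Ndufc1 alone passed (0.30), with a median of 0.10. Of these, 63 were positive and 25 were higher without overlap. An unadjusted p below 0.05 was reached by 25, all of them higher, against 23.5% of all genes in either direction. Mitochondrial genes took 7.55% to 7.90% of TPM in the MSC-EV samples and 5.74% to 6.30% in the HEK-EV samples, and since TPM is a share of the whole, this takes from all other genes. With these genes left out before scaling, 672 genes passed, 32.1% of them higher. Of 82 cytosolic ribosomal protein genes limma called 0 (13 at an unadjusted p below 0.05), with a median of 0.08. Of 30 cell cycle genes it called 0 (1 at an unadjusted p below 0.05), with a median of 0.24 (0.11 to 0.39 on leaving out 1 sample). The share of all genes at an unadjusted p below 0.05 was 23.5%.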

How the data were processed

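RNA of CD11b+ liver cells was sequenced in 9 samples (TruSeq Stranded mRNA libraries, per the labels' protocols), which were grouped by the treatment in their labels. HISAT2 2.1.0, StringTie and build mm10 are named in the submitters' processing notes, with no settings; the strand setting used to assign reads is not given in the sources used here. Values tested are the TPM deposited by the authors, which add up to 1000000 per sample. FPKM as deposited by the authors served as an alternative. The deposited coverage column was divided by FPKM as a stand-in for depth. No counts were used, so no counting interval or detection limit was computed. Rows were summed per gene ID, and 45679 of 45777 IDs (99.79%) matched a RefSeq symbol (GRCm38.p6). Coordinates are those of the files, and promoter sequences those of RefSeq.

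A gene was tested if 3 or more of the 6 vesicle samples reached 1 TPM. The test, on log2(TPM + 1), was that of limma 3.58.1 with a mean-variance trend, run in R 4.3.3. All 9 samples entered 1 fit with no covariate, and the contrast was MSC-EV minus HEK-EV. Tests were two-sided, with Benjamini-Hochberg adjustment over the 13561 genes tested and a threshold of 0.05. An exact permutation test of 3 against 3 cannot go below 0.1, so none was made. Tested on 5 simulated sets of 13561 genes with 200 changed, the procedure called 89.2% of the genes changed 2-fold and 99.2% of those changed 4-fold. Unchanged genes made up 6.61% of its calls. The simulated noise was normal and independent between genes, and the changed genes were drawn from the more abundant ones. Noise shared between genes was not simulated, so these rates do not carry over to the calls made on the real samples. Figures and tables were made with Python 3.11.15, numpy 2.4.6, pandas 2.3.3 and matplotlib 3.10.9.

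The comparison and the 53 gene lists (37 of pathways and families, 16 of cell types) were chosen with earlier results of these data known. Lists are therefore described by counts of called members and by medians, with no test of the list. Some lists share members, so a gene such as Tgfb1 is counted in several of them. Genes were named by rule: up to 15 per direction of largest change among called genes with a mean of at least 5 TPM and no overlap between groups, and up to 5 called members of smallest p per list, or 2 where none was called. Predicted genes, Riken clones and pseudogenes were left out of the first part, and the 3 most abundant markers of each cell type were added. Itgam, Ptprc, Sirpa and Cd47 were sample checks. Genes named outside the rule, such as Gm20056, Ly6c2, Mrc1, Tnf, Il1b, Ly6g, those with a promoter match, those at the ends of a range and the remaining called members of a list, were chosen after their values were seen. Alternatives were a pseudocount of 0.1, other filters, FPKM, other scalings, the 6 samples alone, array weights, a replicate block, the acinar split (a median over the 26 acinar genes listed above 0.3 TPM, a split known from earlier results of these data) and depth as terms, and leaving out each sample. Some genes are not reported here.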

Additional observations from a re-analysis of the deposited data

How the results depend on the processing

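The 870 calls (228 higher, 642 lower) became 387 (147 and 240) without a filter on low values, 448 (245 and 203) on FPKM, 539 (259 and 280) with median-of-ratios scaling, 2104 (709 and 1395) with array quality weights and 1467 (613 and 854) with depth as a covariate. They became 568 (152 and 416) with the acinar split as a term and 228 (82 and 146) in the acinar samples only. With quantile normalization the lower calls were 391, and with the 6 vesicle samples alone the higher calls were 375. Leaving out 1 of the 9 samples gave 0 to 1403 calls (0 to 487 higher, 0 to 916 lower), the largest without PBS replicate 1. A pseudocount of 0.1, a minimum of 5 TPM, a filter over all 9 samples and removal of mitochondrial genes kept the counts within 1.5 times. Those of the 870 genes that were tested kept their sign on FPKM (811), with both other scalings, without mitochondrial genes (861) and with depth as a covariate. The replicate block gave 492 calls (126 and 366). Same-numbered HEK-EV and MSC-EV samples correlated at 0.001, -0.519 and -0.312 in their deviations from the group means, and no sample correlated best with its own number. The deviations within a group sum to 0 and so constrain each other. These values therefore cannot tell whether same-numbered samples share a batch or are paired. Of 148 genes named, 4 changed sign, none of them called. Lyz2 (0.03) became -0.1766 with quantile normalization, -0.1728 in the acinar samples only and -0.0335 with depth as a covariate, and leaving out 1 sample gave -0.0909 to 0.1549. Slfn9 (-0.13) became 0.0695 in the acinar samples only, and -0.3145 to 0.1183 on leaving out 1 sample. On leaving out 1 sample Mrc1 (0.03) ranged from -0.1477 to 0.3016 and Sirpa (0.01) from -0.0148 to 0.0429. A pseudocount of 0.1 ended the calls of Gm20056 (4.36, adjusted p = 0.0503) and Cxcr1 (-0.83, adjusted p = 0.0505), each moved by over 1.5 times. The cause of these changes was not tested.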

Other observations

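Genes by which Ly6C-low, patrolling monocytes are usually recognised were lower in the MSC-EV group together with those of Ly6C-high monocytes. This list of 20 genes was written after values of some of its members had been seen, so it describes these samples and supports nothing beyond them. All 20 were negative, with a median log2 fold change of -0.74 against -0.02 for all genes tested, and 15 passed in limma, against 4.73% of all genes. Treml4, a receptor for dying cells, was at 110.5, 132 and 159 TPM in the MSC-EV samples, 270.2, 237 and 273 TPM in the HEK-EV samples and 211, 265 and 257 TPM in the PBS samples (-0.96, SE 0.134, adjusted p = 0.0201). Spn, the sialoprotein CD43, was at 32.1, 45.8 and 42.1 TPM against 79.7, 74.5 and 74 TPM (-0.93, SE 0.145, adjusted p = 0.0201). All MSC-EV values of both lay below all HEK-EV and PBS values. Ear2, a ribonuclease with near-identical relatives, and Adgre4, an adhesion receptor, had differences of -1.02 and -0.97. Cx3cr1, the fractalkine receptor, did not pass, at 213, 299 and 287 TPM against 377, 341 and 260.2 TPM (-0.29, SE 0.173, adjusted p = 0.356), and its difference ran from -0.44 without HEK-EV replicate 3 to -0.14 without MSC-EV replicate 1. The 20 genes summed to 3940 to 4390 TPM, 6002 to 6497 TPM and 5373 to 6990 TPM after MSC vesicles, HEK vesicles and PBS.

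Alb and Ahsg of the hepatocyte list and Anxa13 of the biliary list passed in limma without HEK-EV replicate 3. They are examples from the 33 genes called in that fit, in which list members were not counted. Without that sample, 22 of the 33 genes called were higher in the MSC-EV group. Alb, serum albumin (1.42, SE 0.183, adjusted p = 0.0313), Ahsg, the plasma protein fetuin-A (1.27, SE 0.137, adjusted p = 0.026), and Anxa13, an annexin of epithelial cells (1.21, SE 0.14, adjusted p = 0.0284), were among them. The 11 lower genes included Tiam2, Vcan and Fcgr2b. HEK-EV replicate 3 had the highest Alb level of its group, 193 TPM.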
